A study of Mus musculus with 16 samples.

Results

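The line by desipramine interaction asks, for each gene, whether chronic desipramine went with a different hippocampal RNA level in mice of the high analgesia (HA) line than in mice of the low analgesia (LA) line. It is the desipramine difference in HA mice minus the desipramine difference in LA mice, and it used all 16 of the 16 arrays of the series. The 4 groups of 4 arrays were HA mice given desipramine (HA DMI), HA mice given saline (HA saline), LA mice given desipramine (LA DMI) and LA mice given saline (LA saline). All were male Swiss-Webster mice of lines bred from outbred stock for a strong (HA) or a weak (LA) analgesic response to swimming, so that line and selected genotype are one thing here. DMI was given intraperitoneally at 7.5 mg/kg/day, or saline in its place, as 21 daily injections, and the hippocampus was taken 2 days later. The treatment label names desipramine for every sample, so the groups follow the titles. The labels give an age of 15 weeks for every group, and the study's methods give other ages. A group held 12 mice by those methods, and RNA of 3 mice was pooled for each array. A pool is the replicate in every test, and the difference between single mice was not measured. Each array is an Illumina MouseRef-8 v2 BeadChip read in 1 colour, and levels are log2 intensities after quantile normalisation, which can be compared between arrays for 1 probe but not between probes.

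Desipramine is a tricyclic antidepressant that blocks the noradrenaline transporter of nerve endings, so that noradrenaline stays longer in the synapse, and given for weeks it is known to change receptor signalling and gene activity in the hippocampus. The hippocampus is a cortical structure of the limbic system in which glutamatergic pyramidal and granule cells are surrounded by interneurons, glia and vessels. It lies against the thalamus, the choroid plexus of the ventricles and the pial membranes, and near the striatum, each of which has marker genes of its own. A positive interaction means that the desipramine difference was more positive in HA than in LA mice. It can come from a higher level in HA DMI or LA saline, a lower level in HA saline or LA DMI, or several of these.

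Mean signals per array lay between 240.5 and 420.8 over the 16 arrays. Detection meant a detection p under 0.05, which held for 12900 to 13886 probes an array. Detection on at least 4 arrays held for 14583 of the 25697 probes, which stand for 9929 named genes. Correlations over the detected probes were 0.986 to 0.996 within groups and 0.975 to 0.994 between groups. The median SD of a detected probe was 0.094 in HA DMI, 0.086 in HA saline, 0.096 in LA DMI and 0.112 in LA saline. Of the listed markers of hippocampal principal cells, 22 of 26 on the array were detected, and so were 24 of 28 for the thalamus, 22 of 26 for striatal projection neurons and 31 of 35 for the choroid plexus. In bulk RNA, fewer cells of a type and less RNA per cell cannot be told apart. Desipramine differences are given as the DMI-labelled minus the saline-labelled arrays, and in both lines their sign ran against the direction in the study's own tables for every tabulated probe. If the treatment labels of both lines were exchanged, every such sign, that of the interaction included, would turn. The study's text gives the direction of its tables, such as Igf2 higher in both lines and Npy lower in HA mice with desipramine. Its qPCR of selected genes, on RNA of the single mice behind the pools, was reported to match its arrays.

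The lines differed in their desipramine difference past the threshold at 1 of 25697 probes (0.00389%), that of Phactr1, by limma with Benjamini-Hochberg adjustment over all probes. At an unadjusted p under 0.05 the count was 1792 of all probes (6.97%) and 1483 of the detected probes (10.2%), of which 638 were positive (4.37% of the detected probes) and 845 negative (5.79%). Over detected genes, each at its brightest detected probe, 430 were positive (4.33%) and 676 negative (6.81%), 1106 in all (11.1%). The median interaction over detected genes was −0.0038, with a typical standard error of 0.10 per probe and a typical 95% interval of 0.211 to each side. An interaction over 0.5 in size was seen at 117 detected probes, 105 of them at an unadjusted p under 0.05, and one over 1 at 13 probes, 12 of them at such a p. Single arrays moved the number called, to 28 probes without LA saline replicate 2 and to 8 without LA saline replicate 3, with Phactr1 among them each time.

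Among the 1483 detected probes at an unadjusted p under 0.05, the desipramine differences of the 2 lines had opposite signs at 1237 (83.4%), against 6480 of all 14583 detected probes (44.4%), and the interaction itself selects such probes. The difference had an unadjusted p under 0.05 in HA only at 615 of them, in LA only at 533, in both lines at 78 and in neither at 257. Across all detected probes the desipramine differences of the lines had a correlation of 0.170, which describes probes of the same arrays and is no test. In the plot of the 2 differences, thalamic markers lay to the left along the HA axis and striatal markers below along the LA axis.

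**Figure D1:**
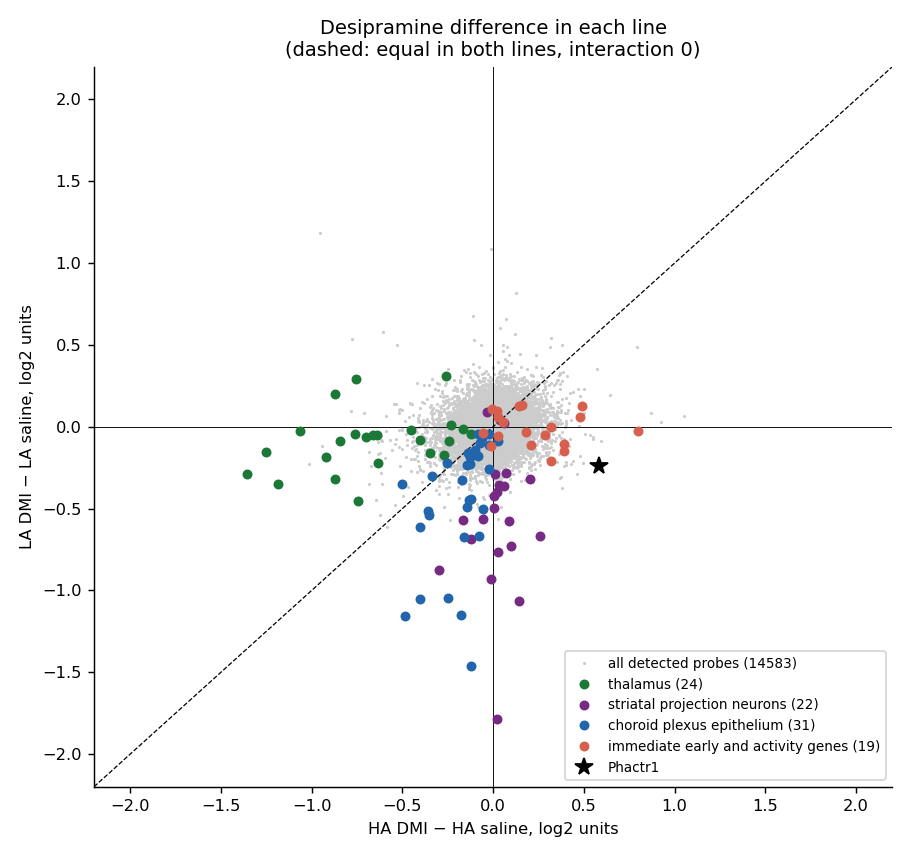
Desipramine difference of each detected probe in HA mice (horizontal, log2 units) and in LA mice (vertical, log2 units), grey for all 14583 detected probes and coloured for the detected genes of 4 lists. Points off the dashed line have an interaction other than 0: the thalamic genes had a median of −0.68 in HA and −0.07 in LA, and the striatal genes a median of 0.03 in HA and −0.53 in LA.

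Phactr1 encodes a regulator of protein phosphatase 1 and of actin that is abundant at neuronal synapses. Its level was 9.27, 9.36, 9.42 and 9.15 on the HA DMI arrays, against 8.77, 8.70, 8.69 and 8.72 on the HA saline arrays. In LA mice it was 8.99, 9.26, 9.19 and 9.08 with DMI, against 9.24, 9.53, 9.39 and 9.32 with saline. The HA groups did not overlap, and the LA groups overlapped only where the highest DMI array (9.26) lay above the lowest saline array (9.24). The desipramine difference was 0.58 in HA and −0.24 in LA, which gave an interaction of 0.82 (SE 0.10, 95% interval 0.61 to 1.03, limma adjusted p = 0.00489). HA mice differed from LA mice by 0.17 under DMI, where the groups overlapped and the limma adjusted p was 0.216, and by −0.65 under saline (limma adjusted p = 2.2e-05). No second detected probe carried this gene name, so none could be compared. The name of this probe was taken from the study, and probes with no name here were not searched for the gene. With arrays scaled to a common median in place of quantile normalisation the interaction was 0.72 and the call was lost (limma adjusted p = 0.9998, no probe called). It was called with each single array left out (limma adjusted p 0.00202 to 0.0246). The HA saline arrays, lowest for Phactr1, were also the highest for the summed thalamic markers given below (0.49 to 0.52, against −0.28 to −0.05 on the HA DMI arrays), and their part in this result was not tested.

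The other positive probes with the smallest p had limma adjusted p values of 0.122 to 0.195 and so did not pass. Fcer1g, the shared signalling chain of Fc receptors in microglia, had 7.60, 8.01, 7.63 and 7.79 in HA DMI, against 7.07, 7.32, 7.09 and 7.35 in HA saline. The LA arrays gave 8.15, 8.30, 8.39 and 8.30 with DMI, against 8.36, 8.52, 8.37 and 8.15 with saline, an interaction of 0.62 (SE 0.13). The HA groups were apart and the LA groups overlapped. S100a13, a calcium-binding protein, had the same size of interaction (0.62, SE 0.13), from a difference of 0.55 in HA and −0.08 in LA. Slc7a14, of the cationic amino acid transporter family, averaged 8.68 ± 0.37 in HA DMI and 7.75 ± 0.25 in HA saline, against 7.42 ± 0.08 in LA DMI and 7.39 ± 0.14 in LA saline (SD, n = 4 each). Its interaction was 0.90 (SE 0.20), and its other probes gave 0.79 and 0.22. The remaining positive probes were those of Spata7 (0.41), the zinc finger gene Zfp35 (0.66), the actin cross-linker Actn2 (0.53), the sialyltransferase St8sia3 (0.76), the choroid plexus gene Ttr (1.34, from values tied near the top of the quantile scale), the kinase Nuak1 (0.33), the membrane protein Tm9sf2 (0.98) and the proteasome subunit Psmb5 (0.49). Of these, Spata7 had a second probe with the same sign (0.28), but it was detected on only 6 arrays. The other probes of Nuak1 (−0.04) and Tm9sf2 (−0.07 and −0.04) stood near 0.

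On the negative side Ly6a, a surface protein of vessel lining cells in the brain, came first. It had 8.58, 9.22, 8.98 and 8.37 in HA DMI, against 9.25, 9.48, 9.31 and 9.56 in HA saline. Among LA mice the values were 8.84, 8.75, 8.86 and 8.97 with DMI, against 8.13, 8.58, 8.16 and 8.23 with saline. The groups did not overlap in either line and went opposite ways, with differences of −0.61 in HA and 0.58 in LA and an interaction of −1.19 (SE 0.20, 95% interval −1.61 to −0.77). It missed the threshold over all probes (limma adjusted p = 0.122) and passed it when only probes detected on at least 4 arrays were tested (limma adjusted p = 0.0487), as it did without HA DMI replicate 2 (0.0118) or LA saline replicate 2 (0.0198). Arhgap24, an inactivator of the GTPase Rac, had 7.87, 7.80, 7.68 and 7.77 in HA DMI, against 8.35, 8.32, 8.39 and 8.23 in HA saline, and fell by 0.54 in HA mice (limma adjusted p = 0.0005). Its LA arrays overlapped (7.52 to 7.64 with DMI, against 7.60 to 7.84 with saline), and the interaction was −0.44 (SE 0.08). A second probe gave −0.03, but it was detected on only 4 arrays, 1 in each group. The other negative probes were those of the aminopeptidase gene Npepl1 (−0.43), the RNA-binding Csdc2 (−0.58), Rusf1 (−0.43), the Ras family gene Diras1 (−0.45), the monooxygenase Fmo1 (−0.41), Tmem145 (−0.67), Rhbdf1 (−0.49) and a probe with no gene name here (−0.56). Both probes of the zinc finger gene Zfp41 were among them (−0.36 and −0.46). The limma adjusted p values of these were 0.130 each.

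Genes of the thalamus had the most negative median interaction of the 23 lists examined. All 24 detected members were negative, 14 of them at an unadjusted p under 0.05 and none of them positive at such a p, which is a share to be read against the 6.81% of all detected genes that were negative at such a p. None passed adjustment. Their median interaction was −0.58, made of a median of −0.68 in HA and −0.07 in LA mice, against −0.0038 over all detected genes. In HA mice the DMI arrays lay wholly below the saline arrays for 22 of the 24, against 6.07% of all detected genes, and in LA mice for 0 of the 24 (2.08% of all). The list is not independent of the study, since 15 of its 24 detected genes were among the probes it tabulated. Without those the median was −0.18. With any 1 array left out, 10 to 18 of the 24 genes were negative at an unadjusted p under 0.05. Their median then ran from −0.69 to −0.43.

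Slc17a6, the vesicular glutamate transporter of thalamic neurons, had 9.99, 9.32, 9.10 and 9.90 in HA DMI, against 10.95, 10.81, 10.98 and 11.02 in HA saline. On LA arrays the level was 10.18, 9.25, 9.06 and 9.52 with DMI, against 8.48, 10.63, 9.78 and 10.25 with saline, and the spread of the LA saline arrays (SD 0.94) covered both LA groups. Its interaction was −1.07 (95% interval −2.08 to −0.06). Gbx2, a homeobox gene of the thalamus, had 7.17, 6.87, 6.90 and 7.10 in HA DMI, against 8.08, 8.22, 8.07 and 7.94 in HA saline. LA mice showed 7.51, 6.73, 6.98 and 6.99 with DMI, against 6.56, 7.80, 6.74 and 7.20 with saline, and the interaction was −1.04 (95% interval −1.63 to −0.45). Gbx2 passed in HA mice and no LA difference was detectable. Rora, a nuclear receptor, and Prkcd, a protein kinase C, had differences of −0.84 and −0.76 in HA and −0.09 and −0.04 in LA, none of which passed, and interactions of −0.76 and −0.72. Cbln1, an organiser of synapses, had −1.05 and the potassium channel subunit Kcnab3 −0.57, both with a positive difference in LA (0.29 and 0.31). Lef1, a nuclear partner of Wnt signalling, had −0.24. The summed level of the thalamic list, the mean over its genes of log2 intensity minus the gene's mean over all arrays, was −0.28 to −0.05 in HA DMI and 0.49 to 0.52 in HA saline. In LA it was −0.46 to 0.17 with DMI and −0.51 to 0.28 with saline. The HA saline arrays thus agreed within an SD of 0.012, where the other groups had SDs of 0.13 to 0.35. The part of neighbouring tissue in the interaction of these genes was not tested.

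**Figure D2:**
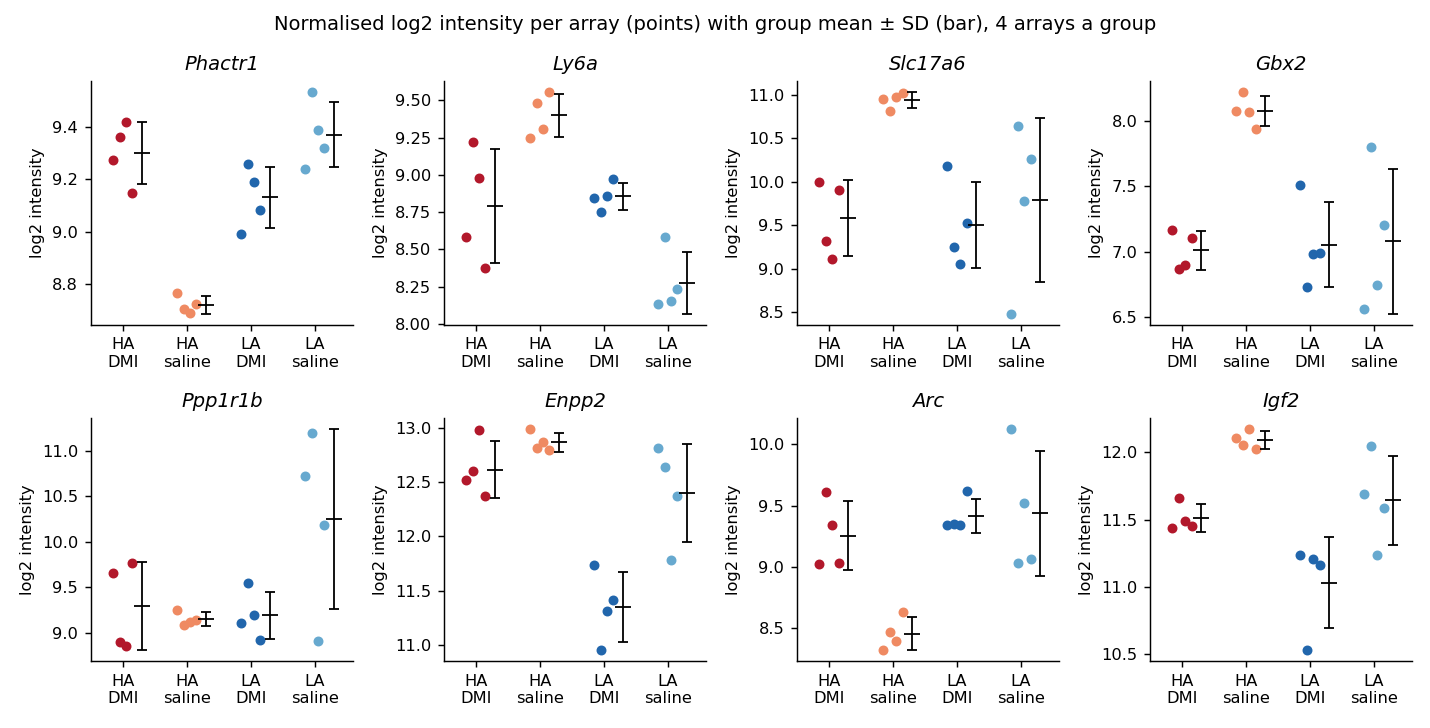
Normalised log2 intensity of 8 genes on each array (points, 4 a group, groups along the horizontal axis) with the group mean ± SD (bars). Phactr1 is high in HA DMI and low in HA saline (9.30 against 8.72), Slc17a6 and Gbx2 are highest in HA saline (means 10.94 and 8.08), Ppp1r1b is high on 3 of 4 LA saline arrays, and the DMI arrays of Igf2 lie below the saline arrays of their own line.

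Genes of striatal projection neurons made the opposite picture. Of 22 detected members, 20 had a positive interaction, 13 of them at an unadjusted p under 0.05, and 0 were negative at such a p, set against 4.33% of all detected genes. None passed adjustment. 11 of the 22 were among the tabulated genes. The median was 0.51, made of a median of 0.03 in HA and −0.53 in LA mice. Meis2, a homeobox gene, had 8.85, 8.49, 8.27 and 8.79 in HA DMI, against 8.29, 8.41, 8.19 and 8.47 in HA saline. For LA mice the levels were 8.46, 8.51, 8.53 and 8.56 with DMI, against 9.28, 9.78, 8.74 and 8.93 with saline, and the interaction was 0.93 (SE 0.23). The LA groups did not overlap. Ppp1r1b, the dopamine-regulated phosphatase inhibitor DARPP-32, had 9.66, 8.89, 8.85 and 9.77 in HA DMI, against 9.25, 9.09, 9.12 and 9.14 in HA saline. The LA arrays gave 9.10, 9.54, 9.19 and 8.92 with DMI, against 10.72, 11.20, 8.91 and 10.18 with saline. Its interaction was 1.21 (SE 0.47) and its other probes gave 0.53 and 0.08. Drd1, the dopamine D1 receptor, had 0.79 (95% interval 0.02 to 1.56), Rarb, a retinoic acid receptor, 0.66, and the transcription factor Foxp1 0.35.

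The striatal difference in LA mice rested on 3 of the 4 saline arrays. The summed level of the striatal list was 0.52, 0.94, −0.19 and 0.36 on the LA saline arrays, while it was −0.23 to −0.01 in LA DMI, −0.32 to 0.06 in HA DMI and −0.16 to −0.13 in HA saline. LA saline replicate 3 therefore lay among the other groups. With any 1 array left out, the number of striatal genes at an unadjusted p under 0.05 ran from 8 to 19 and their median from 0.32 to 0.65, with the low count of 8 without LA saline replicate 2 and also without HA DMI replicate 1. The part of striatal tissue in the result was not tested.

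Genes of the choroid plexus epithelium, which makes cerebrospinal fluid, had lower levels with DMI in both lines and a larger difference in LA. Of 31 detected members 27 had a positive interaction, 11 at an unadjusted p under 0.05 and 0 negative at such a p (4.33% and 6.81% of all detected genes). None passed adjustment. The median interaction was 0.15, from a median of −0.14 in HA and −0.33 in LA mice, and 11 of the members were among the tabulated genes. The 11 became 7 without LA DMI replicate 2 and 6 with median scaling. The median was 0.10 without LA saline replicate 1, 0.092 without LA saline replicate 2 and 0.23 without LA saline replicate 3. Ecrg4, a secreted peptide precursor, had 9.25, 9.47, 9.43 and 9.48 in HA DMI, against 9.37, 9.90, 9.41 and 9.66 in HA saline. Among LA mice the values were 7.63, 7.26, 7.50 and 7.62 with DMI, against 9.12, 8.94, 8.06 and 8.50 with saline, and it fell by 1.15 in LA mice (limma adjusted p = 0.0208). The LA groups did not overlap, and the interaction was 0.97 (SE 0.24). Enpp2, the enzyme autotaxin, had 12.52, 12.60, 12.97 and 12.37 in HA DMI, against 12.99, 12.81, 12.87 and 12.79 in HA saline. On LA arrays the level was 11.73, 10.95, 11.31 and 11.41 with DMI, against 12.81, 12.64, 11.78 and 12.37 with saline, an interaction of 0.80 (95% interval 0.25 to 1.35). The prolactin receptor Prlr had 0.65, the water channel Aqp1 0.59, the tight junction gene Cldn2 0.31, the ageing-related gene Kl 0.51 and the Wnt and BMP antagonist Sostdc1 0.45.

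Ttr, the thyroid hormone carrier of the choroid plexus, had 14.58, 14.63, 14.63 and 14.48 in HA DMI, against 14.72, 14.72, 14.63 and 14.72 in HA saline. LA mice showed 13.45, 12.17, 13.05 and 13.30 with DMI, against 14.52, 14.72, 13.99 and 14.58 with saline. The LA groups did not overlap, and Ttr fell by 1.46 in LA mice (limma adjusted p = 0.0208). Ttr ranked 2 to 6 among all probes on the HA arrays and 2 to 15 on the LA saline arrays, and after quantile normalisation arrays with the same rank share 1 value, so that differences there are differences of rank in both lines. The interaction of 1.34 is therefore no exact size, and it was 1.16 with median scaling, which leaves the signals unranked. The summed choroid plexus level was 0.09 to 0.22 in HA DMI, against 0.29 to 0.38 in HA saline. Among LA arrays it was −0.60 to −0.42 with DMI, against −0.26 to 0.13 with saline, so that DMI and saline arrays did not overlap in either line. The part of choroid plexus tissue in the result was not tested.

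Immediate early and activity-regulated genes, which neurons switch on within minutes of firing, had mostly positive interactions. Of 19 detected members 15 were positive, 8 at an unadjusted p under 0.05, and 0 were negative at such a p (4.33% and 6.81% of all detected genes). None passed adjustment. The median was 0.21, from 0.18 in HA and −0.02 in LA mice. Arc, an organiser of synaptic receptor turnover, had 9.02, 9.61, 9.34 and 9.03 in HA DMI, against 8.32, 8.47, 8.40 and 8.63 in HA saline. For LA mice the levels were 9.34, 9.35, 9.34 and 9.62 with DMI, against 10.12, 9.03, 9.52 and 9.06 with saline. The HA groups were apart, the LA groups overlapped, and the interaction was 0.82 (SE 0.26, 95% interval 0.28 to 1.37). The transcription factor Egr2 had 7.05, 7.07, 7.14 and 7.13 in HA DMI, against 6.94, 6.91, 6.88 and 6.84 in HA saline, and 7.28, 7.14, 7.09 and 7.05 in LA DMI, against 7.32, 7.21, 7.31 and 7.19 in LA saline. Its interaction was 0.32 (SE 0.07). The kinase phosphatase Dusp6 had 0.50 and the synaptic scaffold Homer1 0.52, but other probes of Dusp6 gave 0.18 and 0.14 and those of Homer1 0.14, −0.03 and 0.03. The summed level of the list was lowest in HA saline (−0.19 to −0.17) and overlapped among HA DMI (0.02 to 0.07), LA DMI (−0.01 to 0.15) and the LA saline arrays (−0.01 to 0.21). With 1 array left out the median ran from 0.11 to 0.35, and the 8 became 4 without LA DMI replicate 2 and 5 without LA DMI replicate 3 or LA saline replicate 1. In HA mice the DMI arrays lay wholly above the saline arrays for 6 of the 19 genes (2.93% of all detected genes), and in LA mice for 0 (2.9%).

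Glutamate receptors and their scaffolds had a median of 0.11 over 16 detected genes, with 12 positive, 5 of them at an unadjusted p under 0.05 and 0 negative at such a p (4.33% and 6.81% of all detected genes). Gria1, a subunit of AMPA receptors, had 11.77, 11.81, 11.93 and 11.50 in HA DMI, against 11.18, 11.24, 11.58 and 11.44 in HA saline. The LA arrays gave 11.01, 11.55, 11.56 and 11.50 with DMI, against 11.48, 11.23, 11.63 and 11.58 with saline. Its 3 probes gave interactions of 0.47, 0.71 and 0.63. Gria3, another such subunit, had 0.39, with 0.30 and 0.08 at its other probes, and the kainate receptor subunit Grik5 had 0.28. Of 5 detected subunits of GABA-A receptors none had an unadjusted p under 0.05, and the median of −0.04 changed its sign with single arrays left out.

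**Figure D3:**
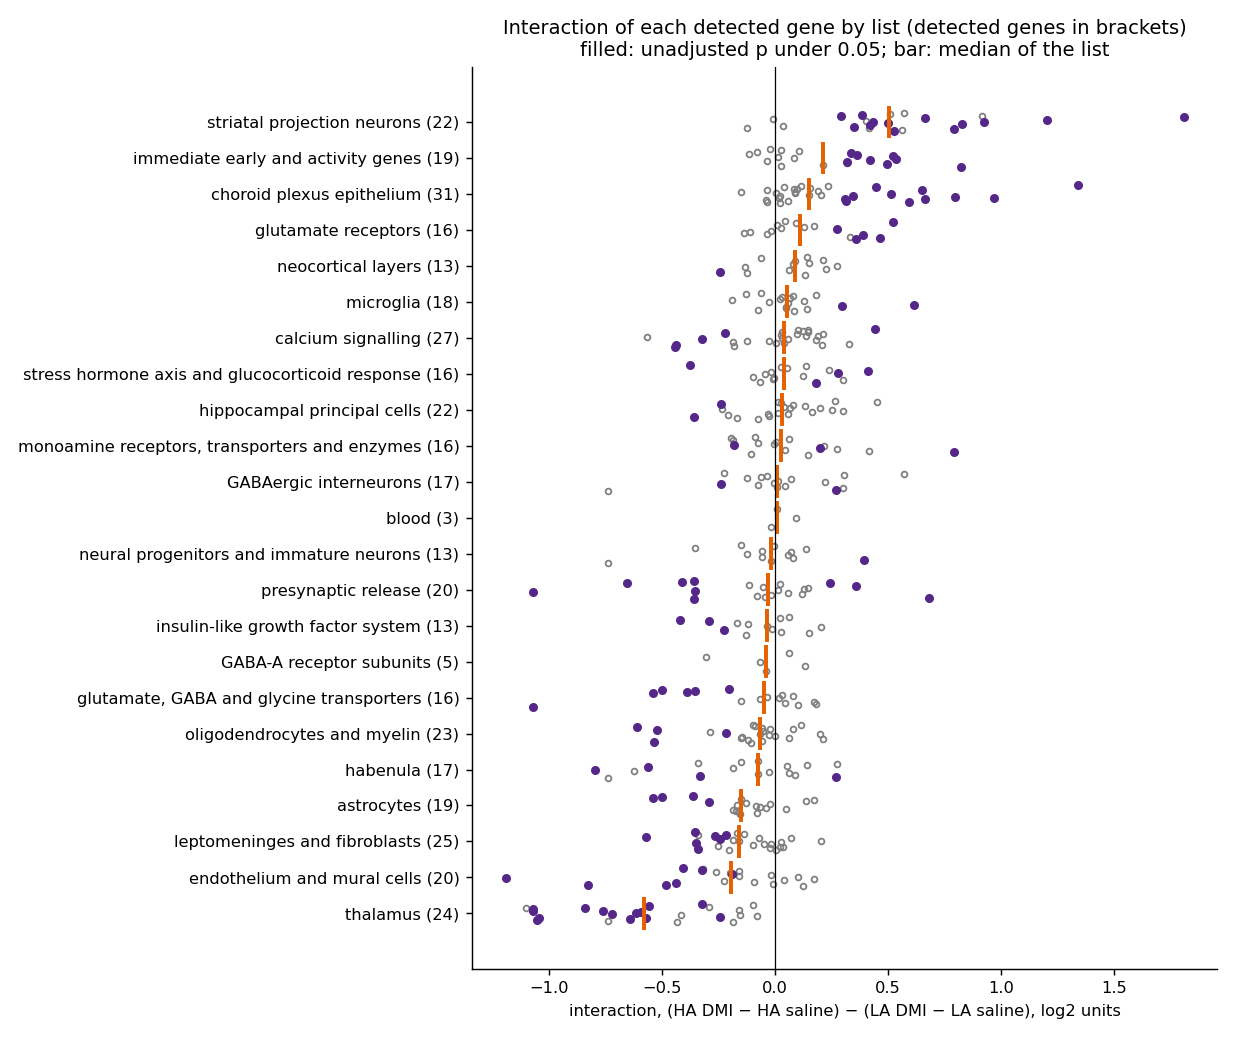
Interaction of each detected gene (horizontal, log2 units) in 23 gene lists (vertical), filled where the unadjusted p is under 0.05, with the median of each list as a bar. The thalamic list stands at the negative end (median −0.58) and the striatal list at the positive end (0.51), while 15 lists have medians within 0.1 of 0.

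Genes of vessels, membranes, astrocytes and oligodendrocytes mostly had negative interactions, with list medians from −0.23 to −0.14 in HA mice and from −0.10 to −0.01 in LA mice. Endothelial and mural cell genes had a median of −0.19, with 7 of 20 negative at an unadjusted p under 0.05 and 0 positive (6.81% and 4.33% of all detected genes). Esam, an adhesion molecule of endothelium, had 8.50, 8.68, 8.47 and 8.65 in HA DMI, against 8.90, 8.84, 8.94 and 9.01 in HA saline, and 9.04, 8.69, 8.82 and 8.88 in LA DMI, against 8.74, 8.78, 8.87 and 8.67 in LA saline. Its interaction was −0.44 (SE 0.10), and the receptor Tek had −0.32 and the membrane-binding Anxa2 −0.48. In HA mice the DMI arrays lay wholly below the saline arrays for 10 of the 20 genes (6.07% of all detected genes), and in LA mice for 0 (2.08%). Leptomeningeal and fibroblast genes had a median of −0.16, with 7 of 25 negative at an unadjusted p under 0.05 and 0 positive. The 7 became 12 without LA saline replicate 2 and 3 with median scaling, and the median was −0.096 without LA DMI replicate 4, −0.098 without LA saline replicate 1 and −0.088 without LA saline replicate 3. Bgn, a matrix proteoglycan, had an interaction of −0.34 (HA difference −0.40, limma adjusted p = 0.0257, under the size limit), while Ptgds, a prostaglandin synthase, had −0.57. The summed leptomeningeal level was −0.13 to −0.05 in HA DMI and 0.15 to 0.19 in HA saline, against −0.23 to −0.04 in LA DMI, while LA saline spanned −0.08 to 0.27.

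Astrocyte genes had a median of −0.15, with 4 of 19 negative at an unadjusted p under 0.05 and 0 positive (6.81% and 4.33% of all detected genes). Among them were the GABA transporter Slc6a11 (−0.54), which fell in HA mice, the glycine transporter Slc6a9 (−0.50), the transcription factor Sox9 (−0.36) and the neurotensin receptor Ntsr2 (−0.29). Oligodendrocyte genes had a median of −0.07, which changed its sign with 1 array left out, and 4 of 23 were negative at such a p. Olig1, a transcription factor of this lineage, had 11.54, 11.28, 11.53 and 11.52 in HA DMI, against 12.01, 11.84, 11.86 and 11.77 in HA saline, and 11.63, 11.37, 11.49 and 11.38 in LA DMI, against 11.35, 11.48, 11.29 and 11.29 in LA saline. The HA groups did not overlap (difference −0.40, limma adjusted p = 0.0257, under the size limit of 0.5), and the interaction was −0.52 (SE 0.10). Bcas1 (−0.54) and Plekhb1 (−0.61) were called lower in HA mice, and the myelin gene Mbp gave −0.21 at the probe taken and −0.39 and 0.02 at its others. Microglial genes had a median of 0.06, with Fcer1g and the fractalkine receptor Cx3cr1 (0.30) as the 2 of 18 at such a p.

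Transporters of glutamate, GABA and glycine had a median of −0.05, with 6 of 16 negative at an unadjusted p under 0.05 and 0 positive, and the sign of the median turned without the tabulated genes. Without LA saline replicate 3 the 6 became 3. Besides Slc6a11, Slc6a9 and Slc17a6 these included the betaine and GABA transporter Slc6a12 (−0.39). Genes of presynaptic release went both ways, with 3 of 20 positive and 6 negative at such a p (4.33% and 6.81% of all detected genes). Cplx2, a clamp of vesicle fusion, had 0.68 and its relative Cplx1 −0.36, the vesicle protein Vamp2 had −0.36 and the vesicle calcium sensor Syt9 −0.65. Among 27 genes of calcium signalling 1 was positive and 4 were negative at such a p, but without LA saline replicate 2 these counts were 5 and 2, and leaving out any of 6 other arrays also left 2 negative (HA DMI replicates 1 and 3, HA saline replicate 3, LA DMI replicates 1 and 4, LA saline replicate 4). The adenylyl cyclases Adcy8 (−0.44) and Adcy1 (−0.44) had like interactions from different lines, since Adcy8 differed by −0.44 in HA and −0.01 in LA while Adcy1 differed by 0.12 in HA and 0.56 in LA.

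Monoamine receptors, transporters and enzymes, the group nearest to the action of desipramine, had a median of 0.03 over 16 detected genes, and the noradrenaline transporter gene Slc6a2 was not detected. At an unadjusted p under 0.05 stood the serotonin receptor Htr1b (0.20), Drd1 (0.79) and the serotonin receptor Htr2a (−0.18). Drd1 was also counted in the striatal list above, at the same probe. Of 16 genes of the stress hormone axis and glucocorticoid response 3 were positive and 1 negative at such a p (4.33% and 6.81% of all detected genes): Avp (0.18), the chaperone Hsp90aa1 (0.28), the metallothionein Mt1 (0.41), and the glucocorticoid-induced Tsc22d3 (−0.37), whose second probe gave −0.01. Without HA saline replicate 3 the 3 became 1. In the insulin-like growth factor system 3 of 13 were negative (6.81% of all), namely Igf2bp3 (−0.22), Igfbp7 (−0.42) and Igfbp6 (−0.29). Hippocampal principal cells had a median of 0.03 with 2 of 22 negative (6.81% of all), the granule cell genes C1ql2 (−0.35) and Prox1 (−0.24), and Prox1 gave 0.19 at its other probe. Interneuron genes had 1 positive and 1 negative of 17, habenular genes 1 positive and 3 negative of 17, neocortical genes 1 negative of 13, progenitor genes 1 positive of 13 and blood genes 0 of 3, against 4.33% positive and 6.81% negative over all detected genes, so that most of these counts lie near the share of all genes. For 10 of these lists, all with medians within 0.1 of 0, the sign of the median changed under at least 1 alternative: habenula, hippocampal principal cells, interneurons, oligodendrocytes, blood, progenitors, transporters, monoamine genes, GABA-A receptors and presynaptic release.

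**Figure D4:**
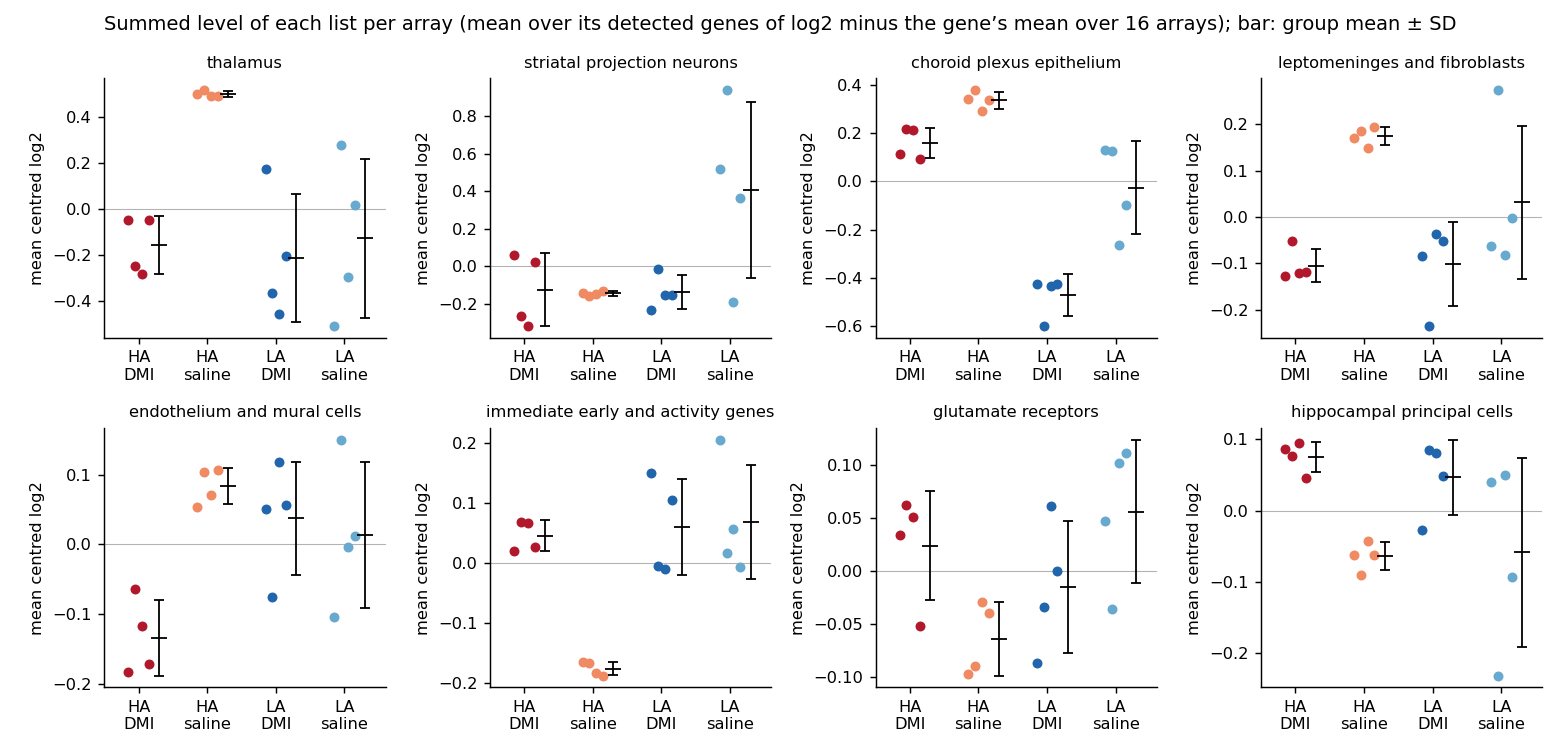
Summed level of 8 gene lists on each array (points, mean over the detected genes of log2 intensity minus the gene's mean over 16 arrays) with the group mean ± SD (bars). The HA saline arrays lie close together for the thalamic (0.49 to 0.52) and striatal lists (−0.16 to −0.13), while the LA saline arrays spread from −0.51 to 0.28 and from −0.19 to 0.94.

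Desipramine differences called within a line were set beside their interaction. In HA mice 31 probes passed an adjusted p under 0.05 with a difference over 0.5 (0.121% of all probes), 8 of them higher (0.0311%) and 23 lower (0.0895%) with DMI. In LA mice 8 passed (0.0311%), 2 higher (0.00778%) and 6 lower (0.0233%). By adjusted p alone 84 passed in HA (0.327%) and 16 in LA (0.0623%). With 1 array left out the HA count ran from 7, without HA saline replicate 3, to 51, without LA saline replicate 2. The LA count ran from 0, without LA DMI replicate 3 or LA saline replicate 2, to 30, without LA saline replicate 3. Of the 31, the interaction had an unadjusted p under 0.05 at 28 and passed adjustment at 1, Phactr1. Of the 8 these numbers were 7 and 0. Over all probes the shares were 6.97% and 0.00389%. A difference within a line is part of the interaction on the same arrays, so selecting on it raises such counts. The 3 HA probes without such a p were those of Slc13a4 (−0.34), Crhbp (0.30) and Sema3f (−0.26). Among the 28 were the copine gene Cpne9 (−0.88), Nudt19 (−0.69) and, in the other direction, Tctn3 (0.55). The mitochondrial fission factor Mff was also among them (−0.79), but its probe was detected on 1 of 4 HA DMI arrays, its interaction was −1.96 with neqc, and a second probe gave −0.09. So a probe called in one line was, Phactr1 excepted, not shown by this fit to differ between the lines after adjustment. Other settings called further ones. Tmem145, Cpne9, Nudt19, Mff and Slu7 passed with an intensity trend and robust prior, and Mff also with the replicate block and with neqc. Gbx2, Arhgap24, Bcas1, Plekhb1, Slc6a11, Igsf1 and Zfhx3 passed without LA saline replicate 2. Without LA saline replicate 3 those of Ecrg4, Zfp330 and Tm9sf2 passed. Of the genes that the study's text names as changed, 23 of 31 probes for HA and 13 of 21 for LA had an interaction at an unadjusted p under 0.05. The share over all probes was 6.97%. The counts for the named genes are not independent evidence, because the genes were chosen by the desipramine difference on these arrays.

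Igf2, an insulin-like growth factor made by the choroid plexus and the membranes, had 11.44, 11.66, 11.49 and 11.45 in HA DMI, against 12.11, 12.06, 12.18 and 12.03 in HA saline. Among LA mice the values were 11.23, 10.53, 11.20 and 11.16 with DMI, against 11.69, 12.05, 11.24 and 11.59 with saline. The groups did not overlap in either line, and the differences were −0.58 in HA and −0.61 in LA. The interaction was 0.03 with a 95% interval of −0.41 to 0.47, which is wide beside the differences themselves. The homeobox gene Otx2 had differences of −0.35 in HA and −0.54 in LA (95% interval of the interaction −0.11 to 0.49). Neuropeptide Y (Npy) had 0.57 in HA and 0.35 in LA (−0.28 to 0.73), and Crhbp, the binding protein of corticotropin-releasing hormone, had 0.79 and 0.49 (−0.05 to 0.66). Cckbr, the brain cholecystokinin receptor, had 0.03 in HA and 0.60 in LA, with an interaction of −0.57 (−1.14 to 0.00), and LA DMI replicate 1 (9.35) stood above the other LA DMI arrays (8.02 to 8.71).

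The contrast can also be read as a change of the line difference. HA and LA mice differed at an adjusted p under 0.05 by limma at 1265 probes under DMI (4.92%) and at 1627 probes under saline (6.33%). Of these, 648 were shared, 51.2% of those under DMI and 39.8% of those under saline, and 647 had the same sign. Both sets come from arrays of their own, and the probes in 1 set only were not tested as such. Of the probes called under DMI 299 had an interaction at an unadjusted p under 0.05 (23.6%), and of those called under saline 464 had one (28.5%), against 6.97% of all probes. Since the line difference in either treatment is part of the interaction on the same arrays, selecting on it raises these shares, and nothing is read from them.

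Several large interactions rested on 1 probe of a gene. Zfp330 had 6.40, 6.55, 6.44 and 6.56 in HA DMI, against 6.48, 6.42, 6.55 and 6.54 in HA saline. On LA arrays the level was 8.23, 7.75, 7.81 and 7.85 with DMI, against 6.48, 6.43, 7.41 and 6.96 with saline. The probe was detected on 4 LA DMI arrays, 2 LA saline arrays and 0 HA arrays, so that its measured interaction of −1.10 sets the LA difference against HA values not above background. A second probe, detected on all 16 arrays, gave −0.02. Slu7, a splicing factor, had −0.64 with −0.07 at its second probe. Csrp1, a cytoskeletal LIM domain gene, averaged 7.82 ± 1.05 in HA DMI and 8.78 ± 0.04 in HA saline, against 9.55 ± 0.41 in LA DMI and 8.37 ± 1.49 in LA saline (SD, n = 4 each). Its interaction was −2.14 (SE 0.78), and its HA DMI and LA saline arrays were split into high and low values. Of 2699 genes with several detected probes, 74 had 2 or more at an unadjusted p under 0.05, in the same direction for 65 and in opposite directions for 9. The 9 were Ctnnd2, Efcab6, Epn2, Fnbp4, Irgm1, Lman2l, Map7d1, Prmt5 and Prox1. Among these, the Fnbp4 probes were detected on only 4 and 7 arrays and the negative Ctnnd2 probe on only 5.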

How the data were processed

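Hippocampal RNA pools were hybridised to 1-colour Illumina bead arrays, 4 per line and treatment, and groups were taken from the sample titles. The log2 values were deposited by the authors after log2 transformation and quantile normalisation and were used as they stand (median 6.69 on every array). The intensity values deposited by the authors are signals per probe without normalisation between arrays, used for alternatives, and the detection p-value beside each, per the file headers, sets the signal against the array's negative controls. The authors scanned the arrays on an Illumina BeadArray Reader and used the beadarray and limma packages of R (versions not given in the sources used here). All 25697 probes were fitted in R 4.3.3 with limma 3.58.1 (lmFit and eBayes), with 1 mean per group, 1 spread per probe and Benjamini-Hochberg adjustment over all probes. The interaction was called at an adjusted p under 0.05, and a difference within a line also needed a log2 size over 0.5. The procedure was tested on simulated data. Names came from the platform annotation updated to GRCm38.p6 (23978 probes with 1 symbol, 0 with several, 1719 with none). The probes of Phactr1, Ly6a, Prlr and Enpp2 carry the study's own symbol. A gene stands for its brightest detected probe in the lists. Genes named are the called probe, the 12 detected probes of smallest p in each direction, genes the study's text names, up to 4 members of smallest p per list, probes called within a line and genes whose probes oppose. The members and lists were chosen with earlier results of these data known. Lists were described and not tested. Alternatives were other normalisations, background correction, filters, priors, array weights, a replicate block and leaving out each array. Samples are separate pools, and their number limits the precision. The authors' tables of comparisons hold fold changes and p values and were used only for gene names and for the direction of sign.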

Additional observations from a re-analysis of the deposited data

Results flagged for a closer look

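The interaction of Phactr1 (0.82) was singled out because the desipramine differences of HA and LA mice differed by the test of that difference. In 188 groups of 4 arrays examined, 1 array stood far from the other 3 in 11 (5.85%), and chance alone gives about 1 in 20. Among the summed levels these were the choroid plexus (−0.60), the habenula (0.17) and insulin-like growth factor genes (−0.11) in LA DMI, the leptomeninges in HA DMI (−0.051) and calcium signalling in LA saline (−0.17). Among single genes they were Spata7 (6.67), Nuak1 (7.66) and Arhgap24 (7.52) in LA DMI, Diras1 in HA DMI (11.68), Ttr in HA saline (14.63) and Zfp41 in LA saline (6.82).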

How the results depend on the processing

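Against 1 probe called for the interaction, 0 were called with median scaling, 3 with neqc background correction, 2 with probes detected on at least 4 arrays, 2 with probes detected on all 16 arrays and 13 with an intensity trend and robust prior. Leaving out each array in turn gave 1 to 28, with 28 without LA saline replicate 2 and 8 without LA saline replicate 3, and Phactr1 was called in each of these. Unadjusted, 781 probes had a p under 0.05 with median scaling and 996 over probes detected on all 16 arrays, against 1792. In HA 4 probes were called with median scaling, 47 over probes detected on all 16 arrays, 54 with array weights and 7 to 51 with 1 array left out, against 31, and in LA 2 with median scaling and 0 to 30 with 1 array left out, against 8. The replicate block (arrays of the same number as 1 block) gave 2 probes for the interaction, Phactr1 and Mff, and 3 in LA. Of 24 same-numbered pairs 7 had deviations correlated over 0.1 (−0.39 to 0.24). They included all 4 pairs of HA saline with LA DMI (0.10 to 0.24). No other pair of groups had all 4, so the numbers were not taken to pair the arrays. HA saline and LA DMI enter the interaction with the same sign, while the main fit took all arrays as independent. What such correlations did to the standard errors of the interaction was not tested beyond the replicate block.

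With median scaling fewer genes had an unadjusted p under 0.05 in these lists. Counts were 11 and not 14 for the thalamus, 9 and not 13 for the striatum and 6 and not 8 for immediate early genes. The choroid plexus had 6 and not 11, leptomeninges 3 and not 7, and endothelium 4 and not 7. Glutamate receptors had 2 and not 5, transporters 3 and not 6, and positive presynaptic genes 0 and not 3. Positive stress axis genes and negative insulin-like growth factor genes numbered 1 and not 3 each. List medians moved past their spread with neqc for the choroid plexus (0.30), habenula (−0.21), striatum (0.92), neocortex (0.15), leptomeninges (−0.28), endothelium (−0.39), stress axis (0.094), insulin-like growth factors (−0.092), glutamate receptors (0.30) and GABA-A receptors (−0.10). Over probes detected on all 16 arrays they were 0.055 for the habenula, 0.14 for neocortex, −0.29 for endothelium, 0.093 for blood, 0.32 for immediate early genes and 0.33 for glutamate receptors. Median scaling gave 0.052 for neocortex, −0.21 for astrocytes, 0.13 for immediate early genes and 0.0018 for the stress axis. Means over probes gave 0.15 for immediate early genes and 0.079 for the stress axis. Without tabulated genes the medians were −0.18 for the thalamus, 0.018 for transporters and −0.12 for insulin-like growth factors. With 1 array left out they were −0.19 to −0.098 for astrocytes, 0.11 to 0.35 for immediate early genes, 0.013 to 0.084 for the stress axis, −0.12 to −0.0089 for insulin-like growth factors and −0.072 to 0.046 for GABA-A receptors. The interaction changed sign for Igf2 (−0.067 with median scaling, −0.14 to 0.16 with 1 array left out), Hba-a1 (−0.013 with median scaling, −0.022 to 0.20 with 1 array left out), Alas2 (−0.048 to 0.022), Hbb-bt (−0.028 to 0.038) and Gabra3 (−0.081 to 0.046). Fewer probes were tested under the detection filters, and the other causes were not tested. Of 598 list medians recomputed, 30 had the other sign. A chip block was not run, because the headers name no chip. Probes near background, detected on few arrays, carry the least reliable values.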
